A study of Mus musculus with 8 samples.

Results

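CXCR3 and CXCR6 and the chemokines that bind them were followed in CT26 tumors. The genes were Cxcl9, Cxcl10, Cxcl11, Cxcr3, Cxcl16 and Cxcr6, taken by their names in the annotation of the array. They made up 6 of the 37074 different gene and transcript names on the array and were read by 10 of its 56605 mouse probes, with 2 probes each for Cxcl10, Cxcl11, Cxcl16 and Cxcr6. CT26 is a colon carcinoma line of BALB/c mice, and tumors were grown under the skin from 500000 cells. Once tumors measured 100 to 200 mm3, mice received vehicle, TP-16 (also labelled BY001) at 75 mg/kg by mouth every day, intraperitoneal anti-PD-1 antibody at 50 µg per mouse in 2 doses a week, or the combination of both agents at these doses. Treatment lasted 2 weeks in all 4 groups. TP-16 is an antagonist of the prostaglandin E2 receptor EP4. PD-1, the target of the antibody, restrains T cells. Each group held 2 arrays, which the series describes as independent biological replicates, without saying whether a sample was 1 tumor or a pool.

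CXCR3 is a receptor of activated T cells and NK cells, and it guides them along gradients of CXCL9, CXCL10 and CXCL11 into inflamed tissue. Interferon gamma induces these ligands through the receptor chains IFNGR1 and IFNGR2, the kinases JAK1 and JAK2 and the factor IRF1. CXCL16 is made as a membrane-bound chemokine, is shed by proteases such as ADAM10, and binds CXCR6, a receptor of effector and tissue-resident T cells. In tumors, macrophages and dendritic cells are known sources of CXCL9 and CXCL10.

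Cxcl9, Cxcl10 and Cxcl11 lie next to each other on chromosome 5, within 41966 bases of the GRCm38.p6 assembly, and Cxcl10 and Cxcl11 lie inside the span of Art3, the gene of an ADP-ribosyltransferase. The 250 bases before the start of Cxcl9 (chr5:92328080-92328329) and of Cxcl10 (chr5:92348890-92349139), both on the minus strand, are shown from RefSeq because these ligands moved together. Motifs are in capitals, and 4 of the 6 genes (not Cxcl11 or Cxcl16) matched the table of promoters.
Cxcl9: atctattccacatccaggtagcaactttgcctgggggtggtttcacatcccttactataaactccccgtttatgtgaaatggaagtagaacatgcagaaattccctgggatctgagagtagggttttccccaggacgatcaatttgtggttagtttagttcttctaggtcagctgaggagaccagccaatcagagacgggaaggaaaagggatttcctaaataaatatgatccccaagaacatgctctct
Cxcl10: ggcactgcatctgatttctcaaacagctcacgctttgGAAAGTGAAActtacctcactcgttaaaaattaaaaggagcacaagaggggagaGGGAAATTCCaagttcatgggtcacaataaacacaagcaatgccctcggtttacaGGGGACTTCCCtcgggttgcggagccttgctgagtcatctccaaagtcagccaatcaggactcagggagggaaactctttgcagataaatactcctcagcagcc
The motifs searched on both strands were the gamma-activated site TTCNNNGAA, the interferon-stimulated response element GAAANNGAAA and the NF-kB motif. Cxcl10 held GAAAGTGAAA, a match to the interferon-stimulated response element, 213 to 204 bases before the start. It also held the NF-kB matches GGGAAATTCC at 159 to 150 bases and GGGGACTTCC and GGGACTTCCC, which overlap, at 104 to 94 bases before the start. No letters of these motifs were found in the windows of Cxcl9, Cxcr3 or Cxcr6. Among 32851 promoter windows of this length, 3.0% held the interferon-stimulated response element, 7.0% the gamma-activated site and 7.3% the NF-kB motif.

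The probes are 60 bases long, and their positions are given in mm9, the build of the array's annotation. Cxcl9 was read at chr5:92752191-92752250, Cxcl10 at chr5:92775781-92775840 and chr5:92776616-92776675, and Cxcl11 at chr5:92788567-92788626 and chr5:92788640-92788699. Cxcr3 was read at chrX:98926920-98926979, Cxcl16 at chr11:70267780-70267839 and chr11:70269481-70269540, and Cxcr6 at chr9:123720719-123720778 and chr9:123720605-123720664. Where a gene had 2 probes, the brighter one, named first here, stands for it, and the other is given beside it. The Cxcl11 probes stood apart in their sequence. Bases 15 to 44 of the brighter Cxcl11 probe are shown with the 20-base run that recurs most often elsewhere in capitals.
Cxcl11: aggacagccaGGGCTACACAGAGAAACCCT
This run alone occurred in 15 of the 32851 promoter entries, each from 250 bases before to 50 after a start. Any 20-base run of the whole probe occurred in 22 of them (0.067%), on 5 probes of other genes on the same strand and on 2 on the opposite strand. The 8 member probes outside Cxcl11 shared no such run with a probe of another gene or with a promoter, and the dimmer Cxcl11 probe shared one with 1 probe of another gene on the opposite strand only. The letters resemble those of B1, a short interspersed repeat of rodent genomes, but no repeat annotation was used here. RefSeq lists Cxcl11 as a transcribed pseudogene in this assembly, which is of the C57BL/6J strain, and the gene of the BALB/c mice was not analysed here.

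All 8 arrays lay on 1 slide in 1 scan. Vehicle and TP-16 arrays filled row 1 and anti-PD-1 and combination arrays row 2, so slide row and antibody cannot be told apart, nor can slide column and TP-16. Between 51.4% and 59.7% of probes were well above background per array. The 75th percentile of intensity, to which each array was scaled, ran from 371.1 to 733.6 and was highest on the combination arrays. Replicate differences over all probes had an SD of 0.68 on the log2 scale for vehicle and 0.42 to 0.53 for the other groups. Levels below are log2 intensities minus that percentile, with mean ± SD over n = 2 arrays. Of the carcinoma markers, Krt8, Krt18 and Krt20 were measured in every group, while Vil1 was not well above background on any array and Epcam and Lgr5 were not so on both arrays of any group. A summed level, the sum over a marker list of linear intensity over the 75th percentile, was 10.1 and 29.3 for T cells and NK cells on the vehicle arrays and 37.6 to 93.5 on the other 6. Red blood cell markers summed to 533 and 338 on the vehicle arrays and to 75.6 to 165 on the others. Markers of epidermis and hair follicle summed to 35.9 and 37 on replicate 2 of TP-16 and of anti-PD-1 and to 7.93 to 9.85 elsewhere.

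Against vehicle, the combination raised 4 of the 6 genes, Cxcr6, Cxcl9, Cxcr3 and Cxcl10, by 1.84 to 3.41 on the log2 scale. All calls needed a 2-fold difference. They were made from 1 limma fit over all 4 groups, once with p no higher than 0.05 before adjustment and once with p no higher than 0.05 after Benjamini-Hochberg adjustment. The same 4 genes passed both rules. Over all 31912 probes tested, 6.12% were called higher without adjustment and 5.08% with it. No member was called lower by its brighter probe, against 9.17% of all probes. The median of the 6 changes was 2.42, beside a median of -0.24 over all 21616 genes tested. Of all probes called in either direction without adjustment, 40% were higher, and 68.3% were higher under quantile normalization. In whole tumors, more cells of a type and more RNA per cell cannot be told apart. The adjusted calls depended on combination replicate 2: without it, 0 members and 0 probes overall passed, while 3 members passed without adjustment. Without combination replicate 1, Cxcr3 alone passed with adjustment, and without either anti-PD-1 array, which enters through the shared spread, 2 members did (Cxcl10 and Cxcr3).

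**Figure D1:**
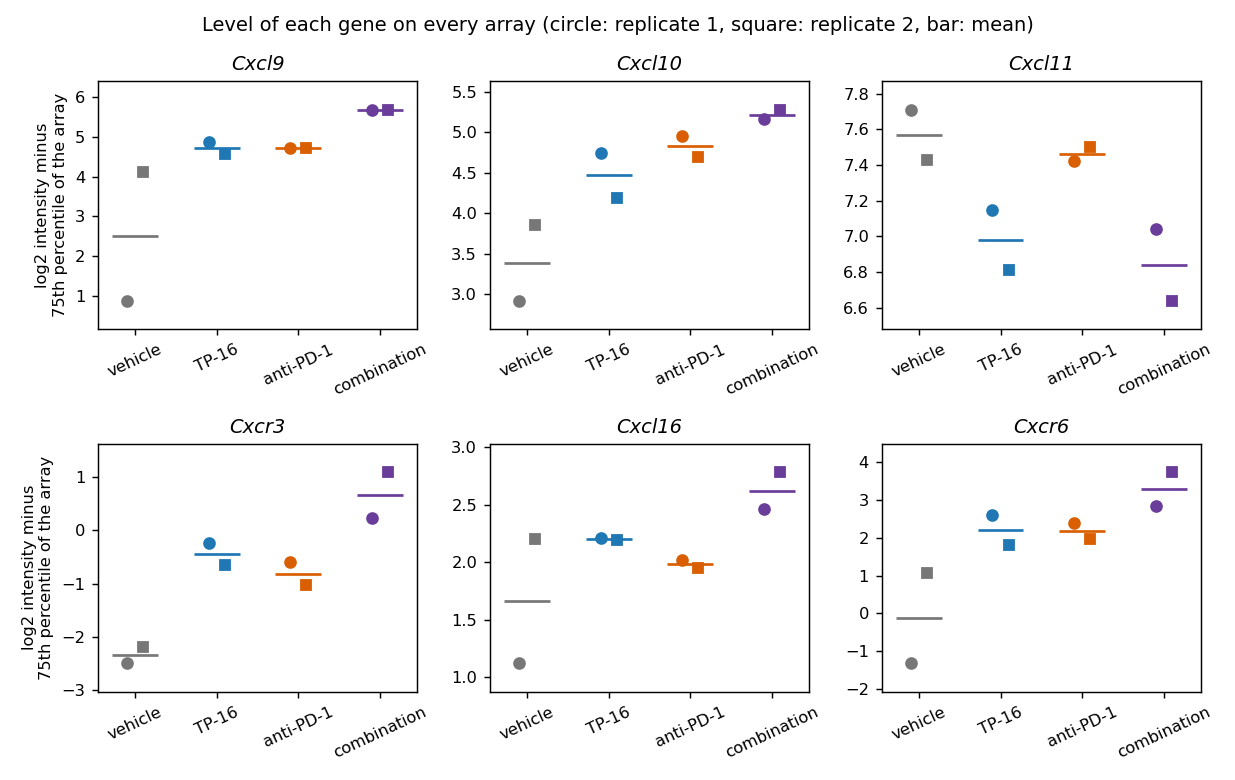
Level of each gene on every array, on the scaled log2 axis defined above, with the 4 groups on the horizontal axis, circles for replicate 1, squares for replicate 2 and bars for the means. Each panel has its own scale. Cxcl9 and Cxcr6 differ 9.29-fold and 5.26-fold between the vehicle arrays. Both combination arrays are highest for every gene except Cxcl11, and how many of all probes share this order was not counted.

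Cxcl9, a ligand of CXCR3, had intensities of 687 and 6508 on the vehicle arrays, 15463 and 12978 with TP-16, 10412 and 10866 with anti-PD-1, and 31099 and 37659 with the combination. Vehicle replicate 1 was far below all other arrays, and both combination arrays were above all others, so the treated groups did not overlap with vehicle. The scaled level was 2.50 ± 2.3 in vehicle, 4.71 ± 0.22 in TP-16, 4.71 ± 0.0011 in anti-PD-1 and 5.68 ± 0.0022 in combination tumors. On this scale the single agents overlapped and differed by 0.00 (95% interval -2.34 to 2.33). The combination exceeded vehicle by 3.18 (SE 0.95, 95% interval 0.85 to 5.52, adjusted p = 0.0497). TP-16 and anti-PD-1 exceeded vehicle by 2.22 and 2.21, which did not pass (unadjusted p = 0.0592 and 0.0594 in limma). Under normexp background correction these were 2.23 and 2.17 and passed without adjustment (limma, unadjusted p = 0.0299 and 0.033). The vehicle arrays set the size: the combination difference was 1.58 without vehicle replicate 1 and 4.79 without vehicle replicate 2, and it passed the adjusted threshold in both. Its adjusted p ranged from 0.00511 to 0.334 over the alternatives.

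Cxcl10, the second CXCR3 ligand, rose in all 3 treated groups at the unadjusted threshold. Its levels were 2.92 and 3.85 on the vehicle arrays, 4.75 and 4.19 with TP-16, 4.96 and 4.69 with anti-PD-1, and 5.16 and 5.28 with the combination. Each treated array was above both vehicle arrays, and both combination arrays were above all others. The difference from vehicle was 1.08 for TP-16 (SE 0.34, unadjusted p = 0.0199, adjusted p = 0.132), 1.43 for anti-PD-1 (unadjusted p = 0.00595, adjusted p = 0.246) and 1.84 for the combination (SE 0.34, adjusted p = 0.0155). Without vehicle replicate 1 these became 0.62, 0.97 and 1.38, and only the last still passed. The dimmer Cxcl10 probe, designed on another cDNA and not well above background on vehicle replicate 1, gave 0.22, 0.70 and 1.02, none of which passed.

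Cxcr3 itself rose, with a gap of 1.24-fold between the vehicle arrays, the smallest among the 4 genes called. Its intensities were 66.2 and 83.7 with vehicle, 451 and 350 with TP-16, 263 and 203 with anti-PD-1, and 712 and 1559 with the combination. Vehicle was lowest and the combination highest, with no overlap with any other group. The scaled levels were -2.33 ± 0.22 for vehicle, -0.81 ± 0.3 for anti-PD-1, -0.44 ± 0.3 for TP-16 and 0.66 ± 0.61 for the combination, and on this scale the single agents overlapped. The combination exceeded vehicle by 2.99, a 7.95-fold difference (SE 0.33, adjusted p = 0.0102). TP-16 exceeded vehicle by 1.89 (unadjusted p = 0.00139, adjusted p = 0.0826) and anti-PD-1 by 1.52 (unadjusted p = 0.00407, adjusted p = 0.241). Leaving out either vehicle array kept these differences between 1.36 and 3.15. Under normexp background correction the differences of the combination (2.11) and of TP-16 (1.17, limma, adjusted p = 0.0382) passed both rules. That of anti-PD-1 was 0.89, under a fold of 2.

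Cxcr6, the receptor for CXCL16, rose as far as any member. Its levels were -1.32 and 1.07 on the vehicle arrays, 2.59 and 1.80 with TP-16, 2.39 and 1.96 with anti-PD-1, and 2.83 and 3.73 with the combination. All treated arrays were above both vehicle arrays, and the single agents overlapped each other. The combination exceeded vehicle by 3.41 (SE 0.8, adjusted p = 0.0267), TP-16 by 2.33 (unadjusted p = 0.0276, adjusted p = 0.151) and anti-PD-1 by 2.30 (unadjusted p = 0.0287, adjusted p = 0.313). The second Cxcr6 probe gave 3.71, 2.46 and 2.38 for the same comparisons and the same calls. Without vehicle replicate 1 the differences were 2.21, 1.13 and 1.1, and only that of the combination passed.

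Cxcl16, the ligand of CXCR6, did not reach a fold of 2 by its brighter probe. Its levels were 1.12 and 2.20 with vehicle, 2.21 and 2.19 with TP-16, 2.02 and 1.95 with anti-PD-1, and 2.46 and 2.78 with the combination. Vehicle replicate 2 lay among the single-agent arrays, and the combination arrays were above all others. The combination difference was 0.96 (SE 0.34, 95% interval 0.12 to 1.80, unadjusted p = 0.0316, adjusted p = 0.0784). The second probe gave 1.02 and passed the unadjusted threshold (adjusted p = 0.0551). Without vehicle replicate 2 the brighter probe gave 1.5 and passed both thresholds, and without vehicle replicate 1 it gave 0.42. It gave 1.01 under quantile normalization, which passed the unadjusted threshold (limma, unadjusted p = 0.0297), and 1.01 under normexp, which passed both rules (adjusted p = 0.0247).

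Cxcl11 did not follow the other ligands. The brighter probe had intensities of 77503 and 65249 with vehicle, 75366 and 61658 with TP-16, 68366 and 75101 with anti-PD-1, and 79921 and 73160 with the combination. The raw intensities of the 4 groups overlapped, and none of these spots was saturated. After scaling, its level was 7.57 ± 0.19 in vehicle, 6.98 ± 0.24 in TP-16, 7.46 ± 0.053 in anti-PD-1 and 6.84 ± 0.28 in combination tumors. The combination difference was -0.73 (SE 0.2, adjusted p = 0.0395), which is under a fold of 2, and it was -0.11 under quantile normalization (adjusted p = 0.704). Quantile normalization also moved the median of all probes from -0.20 to -0.01 in this comparison. The dimmer Cxcl11 probe gave -1.11 and was called lower without adjustment (limma, unadjusted p = 0.0333, adjusted p = 0.0815), and its difference was -1.08 under quantile normalization. The 5 probes of other genes that share a 20-base run with the brighter probe were well above background on all 8 arrays and all had a lower mean with the combination than with vehicle, with a median difference of -0.85. Their patterns over the 8 arrays correlated with that probe at a median r of 0.98, a description in which the points share the arrays and their scaling. Whether transcripts with the shared letters added to the Cxcl11 signal was not tested.

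**Figure D2:**
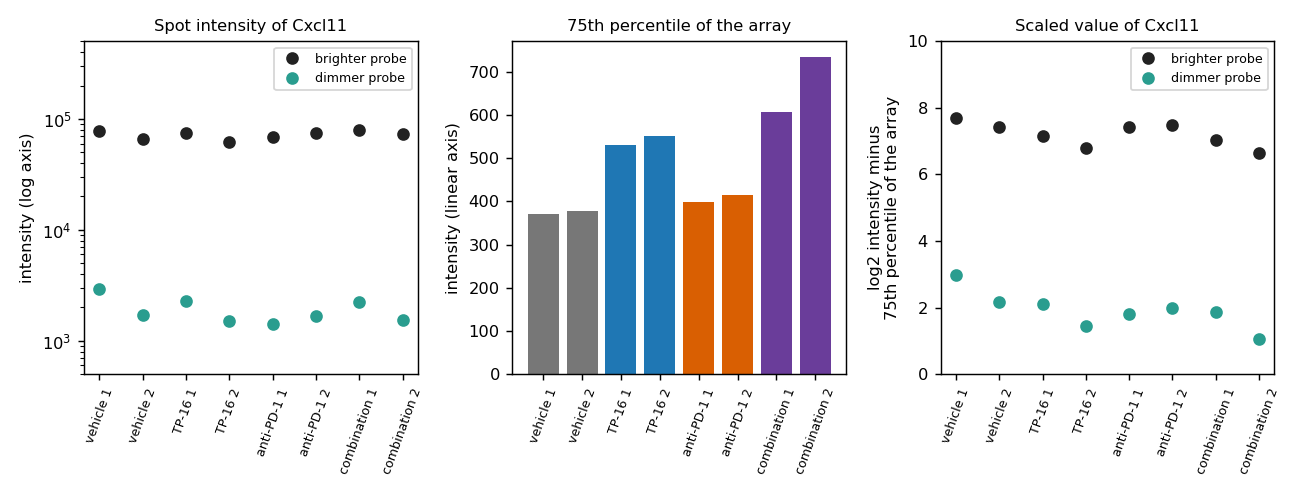
Left, spot intensity of both Cxcl11 probes on each array (log axis); middle, the 75th percentile of each array (bars from 0); right, the scaled log2 values of the probes. The brighter probe stays between 61658 and 79921 while the percentile rises from 371.1 to 733.6, and its scaled value is lowest at 6.64 on combination replicate 2.

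With TP-16 alone, 3 of the 6 genes (Cxcl10, Cxcr3 and Cxcr6) were called higher without adjustment and 0 with it, against 1.57% and 0.00313% of all probes. With anti-PD-1 alone, 3 of 6 were called without adjustment and 0 with it, against 1.67% and 0.0282% of all probes. These were again Cxcl10, Cxcr3 and Cxcr6. Both comparisons share the vehicle arrays, and the 6 genes had a median change of 1.48 in each, beside -0.15 and -0.10 over all genes tested. Without vehicle replicate 1, Cxcr3 was the only member called in either comparison, and without TP-16 replicate 1 it was the only one called for TP-16. Without vehicle replicate 2, the TP-16 differences of Cxcl9, Cxcl10, Cxcr3, Cxcl16 and Cxcr6 were 3.82, 1.54, 2.04, 1.08 and 3.52. That of Cxcl11 was -0.73. The anti-PD-1 differences of these genes were then 3.82, 1.9, 1.67, 0.86 and 3.5, and -0.24 for Cxcl11. Leaving out this array also shifted the whole array upward: among all probes called in either direction, the share that was higher rose in both comparisons.

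Compared with TP-16 alone, the combination raised Cxcr3 by 1.1 (SE 0.33, unadjusted p = 0.0166, adjusted p = 0.155). That was 1 of 6 genes called without adjustment, where 3.52% of all probes were, and 0 with adjustment, where 0% of all probes were. Compared with anti-PD-1 alone, the combination raised Cxcr3 by 1.47 (SE 0.33, unadjusted p = 0.00466, adjusted p = 0.0791). This again was 1 of 6 genes, where 2.3% of all probes were called higher without adjustment, and 0 with adjustment, where 0% were. The Cxcr3 call against TP-16 was lost without TP-16 replicate 2 and without combination replicate 2, and without either vehicle array the count was 2 in both comparisons. For Cxcl9, Cxcl10, Cxcl16 and Cxcr6 the mean of the combination was also above that of each single agent. These 4 differences were 0.42 to 1.08 against TP-16 and 0.40 to 1.11 against anti-PD-1, and none passed. For Cxcl9 the 95% interval ran from -1.37 to 3.30 against TP-16, and for Cxcr6 from -0.86 to 3.07 against anti-PD-1, which covers changes of more than 2-fold in size. Under the normexp correction the Cxcr3 change against anti-PD-1 was 1.22 and also passed with adjustment (adjusted p = 0.0308), and the change against TP-16 was 0.93, under a fold of 2.

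Between the single agents, 0 of the 6 genes were called in either direction, where 1.55% of all probes were. The differences of anti-PD-1 from TP-16 lay between -0.37 for Cxcr3 and 0.48 for Cxcl11. The departure from additive log2 changes, that is the combination's change from vehicle less the summed changes of both single agents, was called for 0 of the 6 genes, where 3.2% of all probes were. It was -1.25 (SE 1.3) for Cxcl9, -1.22 (SE 1.1) for Cxcr6, -0.68 (SE 0.48) for Cxcl10 and -0.41 (SE 0.47) for Cxcr3. Without vehicle replicate 1 it was 0.36 for Cxcl9, -0.02 for Cxcr6 and -0.22 for Cxcl10. Without vehicle replicate 2 it was -2.85, -2.42 and -1.14.

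**Figure D3:**
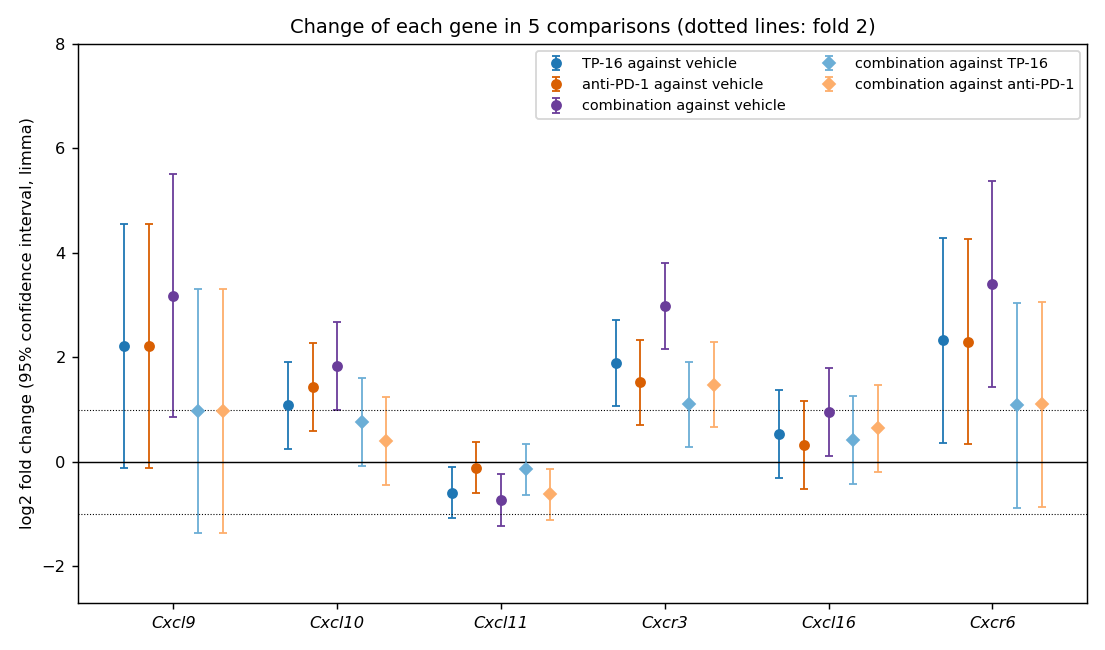
Log2 fold change of each gene in 5 comparisons (points, with 95% confidence intervals from limma), circles against vehicle and diamonds for the combination against each single agent. The combination against vehicle is the highest point for every gene except Cxcl11, and of the diamonds only those of Cxcr3 (1.1 and 1.47) and the one of Cxcl11 against anti-PD-1 (-0.62) have intervals clear of 0.

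Interferon gamma, its receptor and kinases, and other factors and cytokines that act on these ligands or on interferon gamma, such as Tnf, were read from the same fit as 1 list. In the combination, 7 of 17 tested genes of this list were called higher and 0 lower than vehicle, beside 6.63% and 10.4% of all genes. Ifng, the cytokine itself, had levels of -3.58 and -0.49 with vehicle, 0.75 and 0.00 with TP-16, 1.09 and 0.70 with anti-PD-1, and 1.67 and 2.38 with the combination. Its combination difference was 4.06 (SE 0.96, adjusted p = 0.0276). The factors Irf1 (1.62) and Irf8 (1.46), the cytokine Tnf (2.15) and the feedback inhibitor Socs1 (1.11) also rose and passed with adjustment. Without vehicle replicate 1 these differences were 1.01, 0.93, 1.57 and 0.82, with Irf8 and Socs1 under a fold of 2. The receptor chains had values of 0.47 for Ifngr1 and -0.33 for Ifngr2, and the kinases 0.65 for Jak1 and 0.59 for Jak2, all under a fold of 2. Other genes known to be induced by interferon gamma rose together, 20 of 20 without adjustment and 15 with it, beside 1205 of all 21616 genes with it. Their median was 2.62. Ciita, the activator of MHC class II genes (4.84), and the MHC class II chain H2-Aa (4.28) rose most. With the single agents, 12 and 17 of these 20 were called higher for TP-16 and anti-PD-1, where 1.55% and 1.89% of all genes were, and 0 passed with adjustment. As for Cxcl9, vehicle replicate 1 was the low array, with a summed level of this list of 110 against 525 on vehicle replicate 2 and 772 to 1430 elsewhere.

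Over the 8 arrays the ligands and receptors tracked Ifng to different degrees. Pearson's r with Ifng was 0.977 for Cxcl9, 0.981 for Cxcl10, 0.991 for Cxcr6 and 0.884 for Cxcr3, and Spearman's rho was 0.952, 1.0, 0.976 and 0.952. Without vehicle replicate 1 and combination replicate 2, the arrays farthest from the median of Ifng, r over the other 6 arrays was 0.908, 0.99, 0.932 and 0.843. For Cxcl16 r went from 0.91 to 0.257, so the size of r depended on those arrays, and for Cxcl11 from -0.678 to -0.058. Spearman's rho over all 8 arrays was 0.714 for Cxcl16 and -0.69 for Cxcl11. These values describe 8 points that share the scaling of the arrays and hold 4 groups, and 24 such relations were computed.

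**Figure D4:**
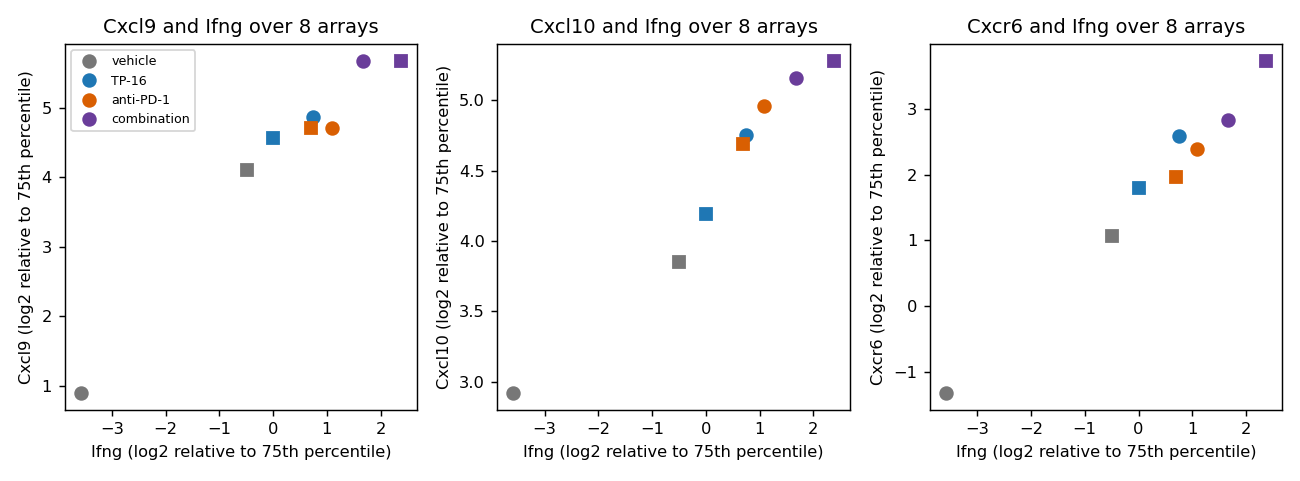
Levels of Cxcl9, Cxcl10 and Cxcr6 (vertical axes) against Ifng (horizontal axis) on the 8 arrays, all as log2 intensity minus the 75th percentile, with circles for replicate 1 and squares for replicate 2. Vehicle replicate 1 is lowest on both axes in each panel, with Ifng at -3.58, and the combination arrays are at the upper right.

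Of the genes that act on the chemokines outside the receptors, 2 of 7 were called higher and 1 lower, with a median of 0.02, beside the 6.63% higher and 10.4% lower of all genes. Dpp4, the dipeptidyl peptidase that truncates CXCL9 to CXCL11, rose by 2.31 with the combination (adjusted p = 0.0107). Ackr1, a receptor that binds chemokines without signalling, rose by 1.59 (adjusted p = 0.0149), and Pf4, the platelet chemokine CXCL4, fell by 1.03 (adjusted p = 0.0254). The Pf4 difference was -0.68 without vehicle replicate 1, under a fold of 2, and -1.37 without vehicle replicate 2. The sheddases had differences of 0.02 for Adam10 and 0.63 for Adam17, the gelatinase Mmp9 0.00 and the scavenger Ackr3 -0.40, all under a fold of 2.

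The cells that carry the receptors were read through T cell and NK cell genes. Of these, 13 of 15 were called higher with the combination, 7 of them with adjustment, and 0 lower. Over all 21616 genes tested, 6.63% were higher and 10.4% lower without adjustment, and 1205 were higher with it. The T-cell receptor chain Cd3e rose by 1.81 (adjusted p = 0.0273), the coreceptor Cd8a, above background on 1 of the 2 vehicle arrays, by 3.76 (adjusted p = 0.0477) and Tbx21, the factor that drives Cxcr3 in these cells, by 2.90 (adjusted p = 0.0304). Vehicle replicate 1 was the low array for all 3, and without it the differences were 1.21, 1.96 and 1.86, and that of Ifng was 2.51. Cd4 had a difference of 0.41, which did not pass, and the NK receptor Ncr1 passed without adjustment at 1.11. The Ncr1 difference was 0.47 without vehicle replicate 1 and 1.76 without vehicle replicate 2. Among effector products, 8 of 10 rose and passed with adjustment, beside the same 1205 of 21616 genes. Ifng and Ccl5, a chemokine made by activated T cells (4.05), led them. Of 17 genes of lymphocyte migration 8 rose, beside the same 6.63% of all genes, with the integrin chains Itgal (2.17) and Itgb2 (2.05) first. These marker levels moved with Cxcr3 and Cxcr6: r with Cd3e was 0.935 and 0.992 over 8 arrays and 0.981 and 0.965 over 6. The part of cell numbers in the change of the receptors was not tested.

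Of the cells known as sources of the ligands, macrophages and dendritic cells each had 6 genes called higher, with and without adjustment, and 0 lower, beside 6.63% and 10.4% of all genes. The 6 macrophage genes were of 12 tested, with Adgre1, which encodes F4/80, at 2.06, and the growth factor receptor Csf1r had 0.94, under a fold of 2. The summed macrophage level was 605 and 644 with vehicle and 568 and 619 with the combination, but Lyz2, named after its values were seen, made up most of this sum, with mean log2 levels of 8.83 and 8.26. Of 9 tested dendritic cell genes 6 rose, among them Batf3 (1.94), a factor of cross-presenting dendritic cells. Clec9a, a marker of these cells, was not well above background on either vehicle array and was at least 8.81-fold higher with the combination (adjusted p = 0.0114), while Xcr1, also below background on both vehicle arrays, did not pass (at least 1.15-fold, adjusted p = 0.241). The CXC family outside the members split, 3 of 11 higher and 2 lower. Cxcl13, which draws B cells, rose (3.33), while Cxcl1 (-1.07) and Ppbp (-1.22), which act on neutrophils through CXCR2, fell. Cxcr5, the receptor for CXCL13, is among the 3 and passed without adjustment, but was well above background only on the combination arrays. It was tested only through that group, and its bound of at least 1.28-fold does not reach a fold of 2. The neutrophil genes S100a8 (-1.09) and S100a9 (-1.20) were the 2 of 8 called in that list, both lower, while the list had a median of 0.14.

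Markers of other tissues were read in the same comparison, with the same 6.63% and 10.4% of all genes as background. All 5 tested red blood cell genes were lower, Hbb-bt by -2.54 and Hbb-b1 by -2.50 on the log2 scale, and 0 were higher. Fibroblast genes were higher for 4 of 8, with Col1a1 at 1.95 and Fap at 1.40. Of 6 tested carcinoma genes 3 were lower, Cdx2 with a fold of at least 6.9 and Krt8 at -2.68. In the B cell and plasma cell list Jchain (3.97) and Mzb1 (2.76) were higher, while Ms4a1 (-2.50) and Pax5 (-1.72) were among the 3 genes called lower. Mzb1 was above background on 1 of the 2 vehicle arrays and Pax5 on 1 of the 2 combination arrays. In endothelium 2 of 7 were higher, Vwf (1.54) and Tek (1.26), in skeletal muscle 1 of 8, Myh1 (1.27), and in epidermis and adipose tissue 0 of 4 and 0 of 7 were called. The part of these shifts in the values of the members was not tested.

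**Figure D5:**
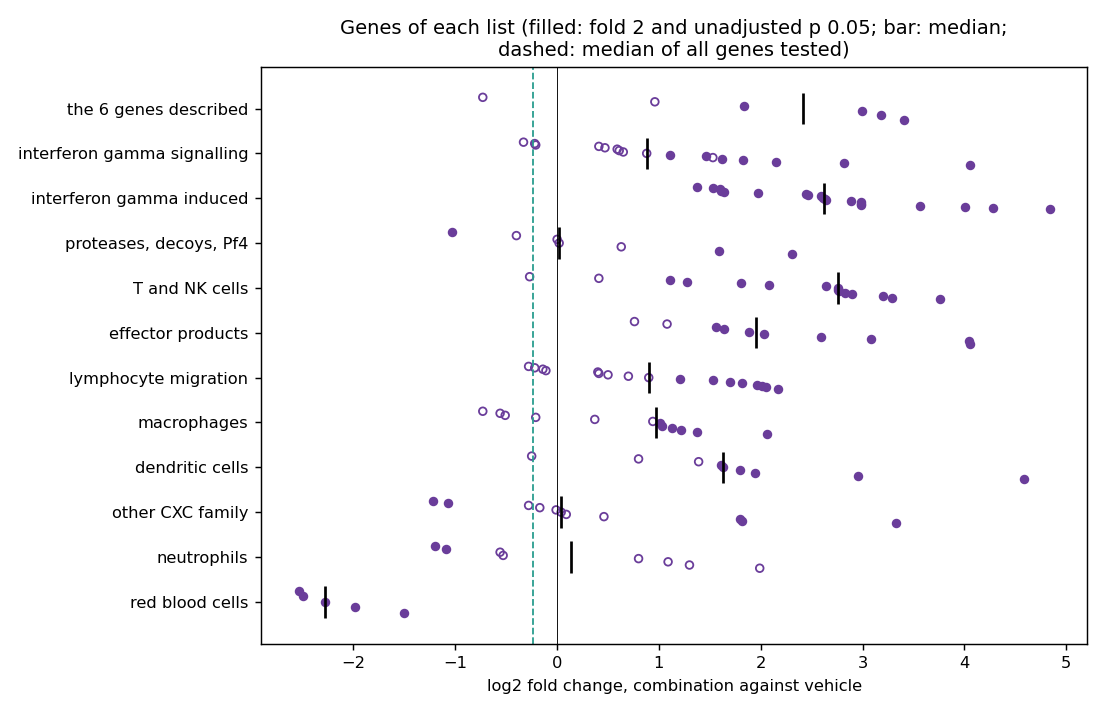
Log2 fold change of the combination against vehicle (horizontal axis) for the 6 genes described and for 11 gene lists (rows), filled where a gene was called without adjustment, with bars at the median of each row and a dashed line at -0.24, the median of all genes tested. The members spread from -0.73 for Cxcl11 to 3.41 for Cxcr6, and all 20 interferon gamma induced genes lie to the right of 1.

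The genes whose pattern over the 8 arrays was most like that of a member, among 18412 genes well above background on all arrays, differed between members. For Cxcl9 these were Tap1, the peptide transporter of antigen presentation (r = 0.996), 9330175E14Rik (0.994) and H2-DMb1, which loads MHC class II (0.992). For Cxcl10 they were the interferon-induced genes Gbp5 (0.993) and Rtp4 (0.991) and the complement inhibitor Serping1 (0.99). For Cxcr6 they were the lymphocyte GTPase Gimap3 (0.996), the death ligand Fasl (0.996) and Nkg7 of cytotoxic granules (0.995). Cxcr3 was most like Galnt3 (0.993), LOC102642189 (0.992) and Tmem131l (0.992), and Cxcl16 most like Abcc5 (0.983), Aif1, a macrophage gene (0.983), and Coro1a, of leukocyte actin (0.982). Cxcl11 was most like 2 probes with no gene name (0.995 and 0.99) and Hccs, a mitochondrial heme enzyme (0.99). These are descriptions over 8 points that share their scaling.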

How the data were processed

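Total RNA of CT26 tumors, 2 samples in each of 4 groups, was labelled with Cy3 and hybridised to 1-colour Agilent SurePrint G3 mouse arrays. The labels give a column kit for RNA extraction and the methods TRIzol. The authors deposited the processed scanner intensity of every spot, from Agilent Feature Extraction 10.7.1.1 per the submitters' processing notes. A series table of log2 values was deposited too. The methods name GeneSpring for it, and the kind of normalization is not given in the sources used here. Its sorted columns differed by at most 0.00115, and each column has a median of 5.158. For the combination against vehicle it called 4472 probes without adjustment, and quantile normalization of the scanner intensities called 4470. These alternatives below are therefore nearly the same setting. Groups and replicate numbers came from the sample titles.

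Control spots and 38 outlier-marked probes were dropped, and spots of a probe were averaged. Each log2 intensity was set relative to the 75th percentile of its array. A probe was tested if 1 or more groups had it well above background on both arrays (31912 of 56567). Limma 3.58.1 in R 4.3.3 fitted 4 group means with no block and 4 residual degrees of freedom, with Benjamini-Hochberg adjustment over all probes tested. A gene below background in a whole group was given a bound, the fold to the lowest signal well above background. The number of arrays limits the precision. Lists used 1 probe per gene, the brightest, and got no set test. The genes named were the members, fixed genes of the interferon gamma, ligand handling, T cell, macrophage and dendritic cell lists, the 2 largest rises and falls called in each other list, and the 3 genes most like each member. A gene that this rule also names is not reported here. The members and lists were chosen with earlier results of these data known. Motifs and shared runs were searched with Python 3.11.15, and figures drawn with matplotlib 3.10.9. The calculations were tested on simulated data. The alternatives were quantile normalization, normexp with an offset of 50, no filter, a filter for background on all 8 arrays, the replicate number as a block, 1 probe per gene, the authors' log2 values, only the groups compared, a fold of 1.5, the methods' t-test, trended and robust moderation, leaving out each array and, added after the data were seen, leaving both Cxcl11 probes out of the count.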

Additional observations from a re-analysis of the deposited data

How the results depend on the processing

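For single genes, 42 results were recomputed to 744 values and judged by the call with adjustment. Of these values, 687 kept direction and side of that threshold, 25 lost the call, 9 gained it and 23 changed sign. In the main setting only Cxcl9, Cxcl10, Cxcr3 and Cxcr6 were called this way, each for the combination against vehicle. Most of the 687 were therefore uncalled values that stayed uncalled, and all 25 lost calls came from those results. None of the sign changes belonged to a value called in the main setting. With 2 arrays a group, no alternative gives a firm size for Cxcl9 or Cxcr6, and the causes of the changes below were not tested.

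Without adjustment, the 3 members called for TP-16 became 1 when only the compared groups were fitted and 1 by the methods' t-test, with 1 to 5 over the fits that leave out 1 array. For anti-PD-1 the 3 became 2 in the fit of the compared groups and 1 by the t-test, with 1 to 4 when 1 array was left out. Normexp gave 4 for TP-16, as did a fold of 1.5, the fourth there being Cxcl11, which was lower. With the filter for background on all arrays, each single agent had 4. For the combination the 4 became 1 by the t-test, 5 under quantile normalization, the authors' log2 values and normexp, and 6 at a fold of 1.5, where Cxcl11 was counted as lower, with 3 to 5 when 1 array was left out. Against TP-16 the 1 became 0 under normexp and by the t-test, with 0 to 2, and against anti-PD-1 it became 2 in the fit of the compared groups, 2 at a fold of 1.5, the second being Cxcl11, which was lower, and 0 by the t-test, with 1 to 2. The departure from additivity gave 0 to 3, the 3 without vehicle replicate 2. With adjustment, TP-16 went from 0 to 2 under normexp and to 1 under trended and robust moderation, with 0 to 1 when 1 array was left out, and anti-PD-1 gave 0 to 1. The 4 members of the combination became 5 under normexp, 3 under trended and robust moderation, 2 with no filter and 0 both in the fit of the compared groups and by the t-test, with 0 to 5 when 1 array was left out. Against anti-PD-1, normexp and trended moderation gave 1. Leaving both Cxcl11 probes out of the count changed no count. A slide block was not run, since there is 1 slide, and the additivity contrast has no t-test or fit of the compared groups.

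The replicate block gave 3 members with adjustment for the combination in place of 4, Cxcl9 being lost (adjusted p = 0.0592), and changed no other count. Deviations of same-numbered arrays correlated between -0.19 and 0.29, so the numbers were not taken as pairs.

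Signs changed for Cxcl11 under quantile normalization and under the authors' log2 values, both giving 0.03 for anti-PD-1 against vehicle, 0.15 for the combination against TP-16 and 0.12 for additivity, and for the additivity of Cxcr3 under normexp (0.05). Over the fits without 1 array, Cxcl11 ranged from -0.24 to 0.03 for anti-PD-1 against vehicle, -0.34 to 0.06 for the combination against TP-16 and -0.23 to 0.17 for additivity. Cxcl16 ranged from 0.00 to 1.08 for TP-16, -0.22 to 0.86 for anti-PD-1 and -0.44 to 0.64 for additivity. Additivity ranged from -2.85 to 0.36 for Cxcl9 and -0.84 to 0.01 for Cxcr3, and anti-PD-1 against TP-16 from -0.16 to 0.15 for Cxcl9 and -0.42 to 0.37 for Cxcr6.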
